A study of Mus musculus with 12 samples.

Results

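The subunits of the mitochondrial respiratory chain and of the ATP synthase were followed in the colon of wild-type and Parp1-/- mice. A gene was a member if its symbol was Nduf with the letter a, b, c, s or v and a number, was Sdha, Sdhb, Sdhc, Sdhd or Cyc1, or began with Uqcr, Atp5 or one of the Cox4 to Cox8 subunit names, and if the probe set carried exactly 1 symbol. Assembly factors named Ndufaf or Sdhaf are therefore not members. The rule gave 78 genes, read by 87 probe sets, out of 21314 genes with 1 symbol and 31693 probe sets in all. By complex, 33 members carried complex I names, 4 complex II, 8 complex III, 16 complex IV and 17 complex V. A further 10 probe sets were left out because they carried several symbols, among them probe sets for Cox6c, Ndufb2, Ndufb4 and Ndufs6, and 1 was left out as a pseudogene. No filter on low values was applied, so all 78 members entered every test.

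The study used mice 6 to 8 weeks old in 4 groups of 3, and each mouse gave 1 Affymetrix array of total RNA from the whole colon. Wild-type and Parp1-/- mice either drank plain water or received 4% dextran sulfate sodium (DSS), a polymer that injures the colon lining and brings on colitis, for 7 days. PARP1 is the main enzyme that adds ADP-ribose chains to proteins at sites of DNA damage, using NAD+ as its substrate. The genotype labels name no allele design, background strain or other alteration, and no agent other than DSS is named for any group. RNA came from whole tissue, so fewer cells of a type and less RNA per cell cannot be told apart.

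The respiratory chain sits in the inner mitochondrial membrane. Complex I takes electrons from NADH and complex II from succinate, both pass them through ubiquinone to complex III, cytochrome c carries them to complex IV, and oxygen receives them there. The proton gradient built on the way drives complex V, the ATP synthase. The members are all encoded in the nucleus, and mature colonocytes are known to feed this chain largely by oxidising butyrate made by gut bacteria.

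Each value is a log2 signal from which the median of that probe set over the 12 arrays had been taken away, so 0 is the middle array and no level can be compared between genes. The log base and the sign are not stated in the sources used here and were taken as log2 with higher meaning more signal. A difference of 1 is then a factor of 2.

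Several arrays stood apart, and the values are needed to read what follows. The 21 measured genes of a list of 24 housekeeping genes averaged -1.56, -1.0 and -1.15 in the wild-type water arrays and -1.07 in wild-type DSS mouse 1. The other 8 arrays lay between -0.03 and 0.32 on this list, although the median of all genes lay between -0.03 and 0.05 in all 12. Equal medians did not mean equal spread. The SD over all values of an array was 0.87, 0.67 and 0.72 for wild-type water mice 1, 2 and 3. For wild-type DSS mouse 1 this SD was 0.83, and for the other 8 arrays it lay between 0.26 and 0.39. The main model weighted all arrays alike, and a fit with array weights is given below. The 12 smooth muscle genes averaged 2.75, 2.69 and 2.73 in Parp1-/- water mice 2 and 3 and Parp1-/- DSS mouse 1, against -0.54 to 0.06 in the other 9 arrays. The 20 colonocyte markers averaged between -1.27 and -0.94 in wild-type water arrays and between -0.66 and 0.45 elsewhere. Parp1 itself read -0.41, 1.15 and 0.53 in the wild-type mice on water and 0.01, 0.51 and 0.77 in those given DSS. All 6 Parp1-/- arrays lay between -0.22 and 0.03. Wild-type water mouse 1 therefore read below every Parp1-/- array and wild-type DSS mouse 1 within their range, so this gene separated only 4 of the 6 wild-type arrays from the knockouts. Of all genes, Xist varied most between the Parp1-/- water mice, with an SD of 3.21. The part that tissue composition, sex, RNA quality or array handling has in the differences below was not tested.

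Promoter sequences were available for 63 of the 78 members, as RefSeq windows on GRCm38.p6 that run from 250 bases before to 50 bases after the start of the gene. Nuclear genes of the chain are classically linked to NRF1, GABP (an ETS factor), YY1, SP1 and the oestrogen-related receptors, so their core motifs were searched on both strands. The NRF1 motif (GCGCA, then any base, then GCGC) was found in 14 of the 63 member windows, 22.2%, against 4.78% of the windows of 27025 genes. The GABP motif CCGGAAG was in 16 members, 25.4% against 9.12%, and the YY1 motif AAGATGGC in 8, 12.7% against 2.88%. The SP1 motif GGGCGG was in 26 members, 41.3% against 35.9%, and the ERR motif TCAAGGTCA in 2, 3.17% against 0.407%. None of these motifs contains another, though matches can overlap in a window. A match describes letters in a window and is not a site.

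The 250 bases before the start of 4 members are shown here as examples, and they do not cover every pattern among members that moved. Ndufs4, called higher in Parp1-/- water, and Atp5j2, called lower, are not shown and hold none of the 5 motifs in these 250 bases. Both have a YY1 match in the longer window. In each, lower case is sequence and capitals mark the motif matches on either strand. Sdha, the flavoprotein of complex II (chr13:74350241-74350490, minus strand), holds 3 NRF1 matches, and Cox6a1, a subunit of complex IV (chr5:115348959-115349208, minus strand), holds NRF1, SP1 and GABP matches. Uqcrh, the hinge protein of complex III (chr4:116075071-116075320, minus strand), holds 1 GABP match 10 bases before the start. Ndufb3, an accessory subunit of complex I that moved against most members (chr1:58586147-58586396, plus strand), holds none of the 5 motifs.
Sdha: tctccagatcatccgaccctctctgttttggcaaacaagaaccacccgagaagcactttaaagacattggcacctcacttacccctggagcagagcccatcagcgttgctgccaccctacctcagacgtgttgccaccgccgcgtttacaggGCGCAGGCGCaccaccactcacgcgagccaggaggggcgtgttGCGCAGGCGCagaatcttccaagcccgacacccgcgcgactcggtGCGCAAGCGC
Cox6a1: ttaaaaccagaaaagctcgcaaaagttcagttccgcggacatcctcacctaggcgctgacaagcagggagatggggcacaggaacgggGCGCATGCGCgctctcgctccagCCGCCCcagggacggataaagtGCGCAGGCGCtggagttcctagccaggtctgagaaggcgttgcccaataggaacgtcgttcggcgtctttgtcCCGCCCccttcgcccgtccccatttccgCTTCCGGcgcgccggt
Uqcrh: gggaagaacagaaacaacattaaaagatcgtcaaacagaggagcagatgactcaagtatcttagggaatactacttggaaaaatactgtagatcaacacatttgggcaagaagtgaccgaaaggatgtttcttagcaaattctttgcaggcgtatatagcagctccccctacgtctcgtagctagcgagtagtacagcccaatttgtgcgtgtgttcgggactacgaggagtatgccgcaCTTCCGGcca
Ndufb3: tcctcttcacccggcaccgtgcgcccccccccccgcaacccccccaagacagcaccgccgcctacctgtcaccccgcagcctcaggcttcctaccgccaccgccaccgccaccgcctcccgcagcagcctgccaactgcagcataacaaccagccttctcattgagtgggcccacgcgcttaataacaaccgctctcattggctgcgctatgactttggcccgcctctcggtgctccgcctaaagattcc

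Motifs were found among called and uncalled members alike. Of the 31 members with a window that were called higher in Parp1-/- than in wild-type colon under water, 6 held the NRF1 motif, 10 GABP, 4 YY1 and 15 SP1. Of the 29 that were not called, 8 held NRF1, 6 GABP, 3 YY1 and 11 SP1. The 3 called lower held no NRF1, GABP or SP1 match and 1 held YY1. These counts are a description without a test.

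Across the 12 arrays, the members as a whole read lowest in the same 4 arrays as the housekeeping genes. In wild-type mice the median of the 78 members was -1.03, -0.57 and -0.53 on water, and -0.90, -0.07 and 0.28 after DSS. In Parp1-/- mice it was 0.20, 0.34 and 0.23 on water, and 0.22, -0.05 and -0.02 after DSS. Wild-type water and wild-type DSS mouse 1 formed the low end, and the other 8 arrays lay between -0.07 and 0.34. Members more than 1 below their own median numbered 40, 23 and 31 in the wild-type water arrays, 33 in wild-type DSS mouse 1, 4 in wild-type DSS mouse 2 and 1 in Parp1-/- DSS mouse 3, and there were none in the other 6 arrays. Over all genes, 10.5% to 19.3% were as low in the 3 wild-type water arrays and 14.5% in wild-type DSS mouse 1, against 29.5% to 51.3% and 42.3% of the members.

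**Figure D1:**
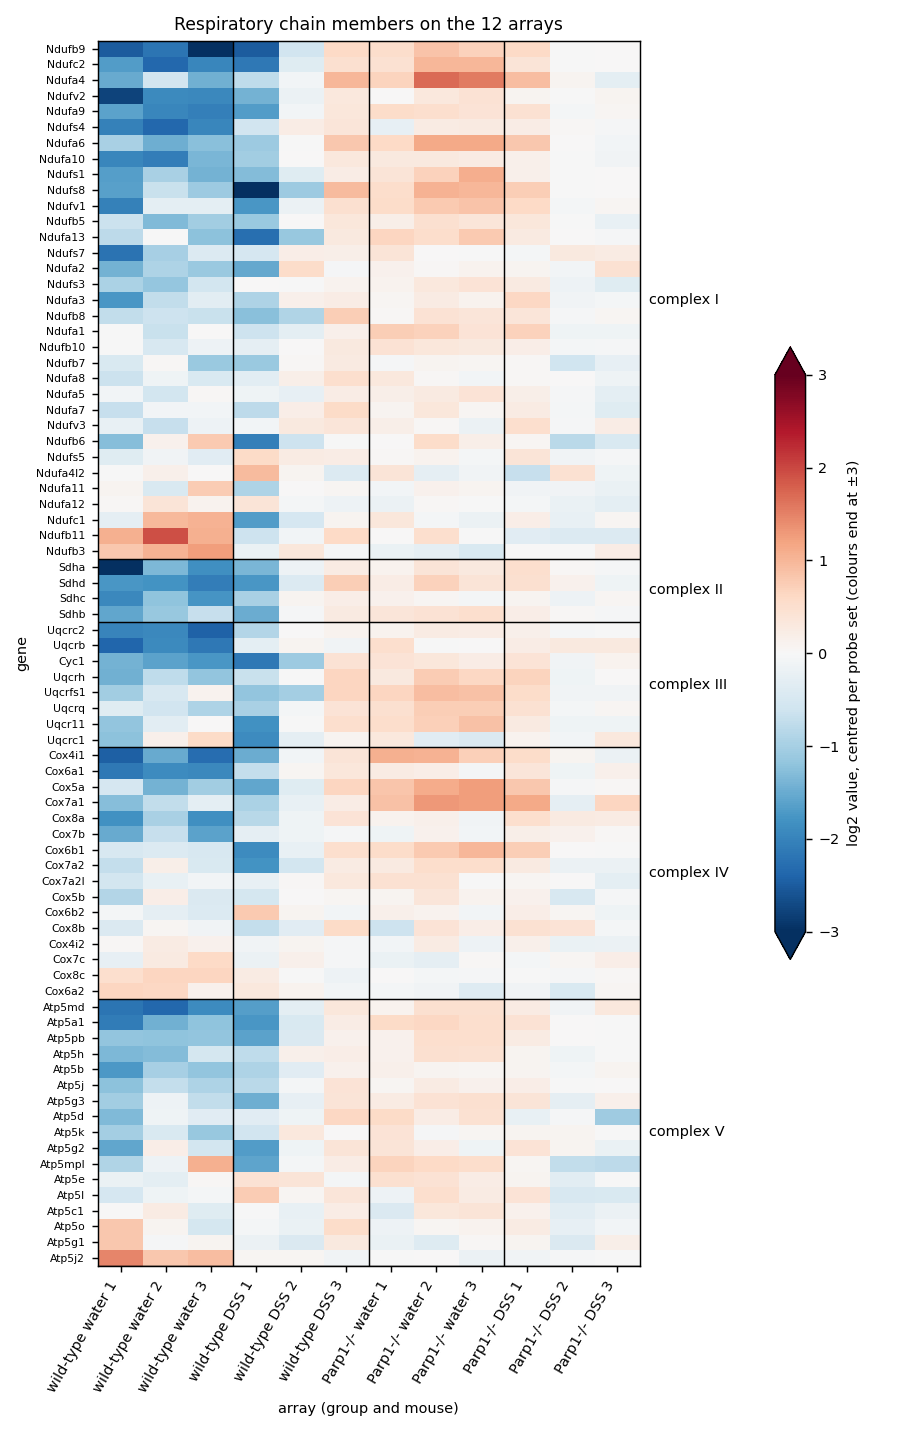
Centred log2 value of each of the 78 members (rows, grouped by complex) in each of the 12 arrays (columns, grouped by genotype and treatment). Most rows are low in the 3 wild-type water arrays and wild-type DSS 1. A small number of rows, such as Ndufb3, Ndufb11 and Atp5j2, are high in the 3 wild-type water arrays but not in wild-type DSS 1.

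**Figure D2:**
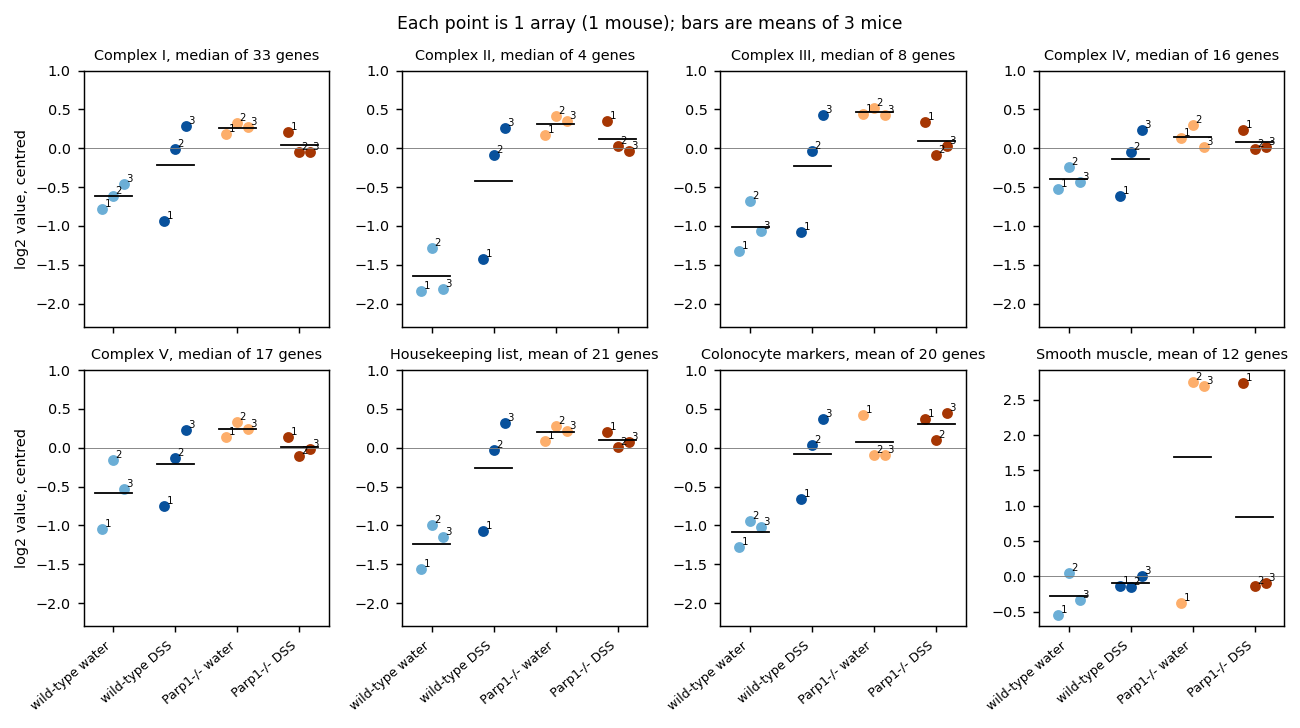
Centred log2 value per array of the median of each complex and of the mean of the housekeeping, colonocyte and smooth muscle lists; each point is 1 mouse, bars are means of 3 mice, and the smooth muscle panel has its own scale. The housekeeping list is low in the same 4 arrays as the complexes, whereas the smooth muscle list is high in Parp1-/- water 2 and 3 and Parp1-/- DSS 1.

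The complexes differed in how low they read in those arrays. Across the 3 wild-type water arrays the median of the 4 complex II subunits was -1.84, -1.29 and -1.81, and it was -1.43 in the first DSS array of that genotype. Complex III followed with -1.32, -0.67 and -1.06, and with -1.08 in that DSS array. The medians of complexes I, IV and V were between -1.05 and -0.16 in wild-type water. The spread between mice also differed by group. The median SD of a member was 0.36 on water and 0.66 after DSS in wild-type mice, against 0.30 and 0.36 over all genes. In Parp1-/- mice it was 0.17 and 0.24, against 0.14 and 0.16 over all genes.

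In mice on plain water, respiratory chain transcripts were higher in Parp1-/- than in wild-type colon. Of the 78 members, 41 were called higher and 5 lower at a limma adjusted p under 0.05, against 17.9% of all genes higher and 13.7% lower, and 31.6% in either direction. The median difference was 1.13 on the log2 scale, against -0.07 for all genes, and 65 of the 78 differences lay above 0, as did 46.5% of all genes. The arrays of the 2 groups did not overlap for 60 members, 76.9%, against 55.4% of all genes. The direction of the family turned when the housekeeping mean was subtracted from each array, where the median difference was -0.30, with 16 members higher and 30 lower. On that scale 2.53% of all genes were higher and 75.3% lower, and 27 members lay above 0 against 9.92% of all genes. The housekeeping list itself had a median difference of 1.46 with 15 of 21 genes higher. That scaling moved the median of all genes by -1.43. Under quantile normalization 30 members were higher and 2 lower, against 7.3% and 2.64% of all genes, and the median was 0.75. Goblet cell markers were higher in the same comparison, 10 of 10 with a median difference of 2.02, as were 14 of 20 colonocyte markers with a median of 1.38. The goblet list averaged between -1.77 and -1.40 in the wild-type water arrays and between -0.62 and 0.44 in the other 9, and its part in the members' difference was not tested. With Parp1-/- water mice 2 and 3, the smooth muscle-rich arrays, left out together, 1 mouse was left in that group, its spread was taken from the other groups, and 5 members were called higher and 0 lower, against 1.82% of all genes in either direction. In that fit 64 differences lay above 0, against 44.5% of all genes. The number called lower was 3 without wild-type water mouse 2 and 3 without Parp1-/- water mouse 3, against 12.1% and 3.65% of all genes.

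In complex II all 4 subunits were called higher, with a median difference of 2.0, where 17.9% of all genes were higher. Sdha read -3.23, -1.36 and -1.84 in wild-type water and 0.12, 0.39 and 0.30 in Parp1-/- water. The groups did not overlap, and the difference was 2.41 ± 0.47 (SE, adjusted p = 0.00451). The iron-sulfur subunit Sdhb was higher by 1.55, and the membrane anchors Sdhc and Sdhd by 1.68 and 2.31. Relative to the housekeeping mean the median of complex II was 0.56, with 2 of the 4 subunits called higher and 0 lower, where 2.53% of all genes were higher. It was 1.20 under quantile normalization, with all 4 called higher. On the housekeeping scale complex III stood at 0.06, and complexes I, IV and V at -0.36, -0.75 and -0.42.

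In complex I, 16 of 33 subunits were higher and 2 lower, against 17.9% and 13.7% of all genes, with a median difference of 1.07. Ndufb9, an accessory subunit of the membrane arm, differed most of all members. It read -2.50, -2.19 and -3.16 in wild-type water and 0.53, 0.86 and 0.70 in Parp1-/- water, a difference of 3.31 ± 0.59 (adjusted p = 0.00294). Ndufc2, another membrane arm subunit, was higher by 2.82, Ndufa9 by 2.35 and Ndufs4, an accessory subunit that is a known Leigh syndrome gene, by 2.21. Among the core subunits that carry electrons, Ndufs1 was higher by 2.07, Ndufv2 by 2.47 and Ndufv1, which binds NADH, by 1.60 ± 0.55 (adjusted p = 0.0465). For Ndufv1, wild-type water mouse 1 read -2.04 and mice 2 and 3 read -0.30 and -0.28. Ndufb3 and Ndufb11, accessory subunits of the membrane arm, went the other way. Ndufb3 read 0.80, 1.03 and 1.26 in wild-type water and -0.19, -0.26 and -0.45 in Parp1-/- water, a difference of -1.33 ± 0.18 (adjusted p = 0.000743). Ndufb11 differed by -1.19 ± 0.32 (adjusted p = 0.0173).

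Complexes III, IV and V held both strong movers and members without a call. In complex III 6 of 8 were higher, among them the core protein Uqcrc2 and the small subunit Uqcrb, where 17.9% of all genes were higher. Uqcrb read -2.38, -1.92 and -2.15 in wild-type water and 0.49, -0.01 and 0.01 in Parp1-/- water, a difference of 2.31 ± 0.19 (adjusted p = 4.43e-05). Cyc1, the cytochrome c1 that hands electrons to cytochrome c, was higher by 1.91, and the Rieske iron-sulfur protein Uqcrfs1 by 1.29 ± 0.44 (adjusted p = 0.0442). Uqcrc1, the partner of Uqcrc2, had a difference of 0.01 ± 0.52 and read -1.22, 0.15 and 0.58 in wild-type water. In complex IV 7 of 16 were higher and 2 lower, against 17.9% and 13.7% of all genes. Cox4i1, the largest nuclear-encoded subunit, read -2.45, -1.52 and -2.29 in wild-type water and 1.06, 1.04 and 0.71 in Parp1-/- water, a difference of 3.02 ± 0.42 (adjusted p = 0.000791). Cox5a was higher by 2.05 and Cox6a1 by 2.12.

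In complex V 8 of 17 were higher and 1 lower, against 17.9% and 13.7% of all genes. In the catalytic core, Atp5a1, the alpha subunit, was higher by 2.15 and Atp5b, the beta subunit, by 1.41, but the gamma subunit Atp5c1 differed by only 0.13 ± 0.25 and was not called. Atp5md, a small membrane subunit also known as DAPIT, read -2.20, -2.36 and -1.89 in wild-type water and 0.10, 0.49 and 0.48 in Parp1-/- water, a difference of 2.50 ± 0.39 (adjusted p = 0.00155). Of the 3 genes for the c-ring protein, Atp5g1, Atp5g2 and Atp5g3, none was called, with differences of -0.47, 0.78 and 1.04. Atp5j2, the f subunit of the membrane part, was lower, with 1.46, 0.80 and 0.93 in wild-type water and -0.01, 0.01 and -0.19 in Parp1-/- water, a difference of -1.13 ± 0.18 (adjusted p = 0.00155). Among the members named, 4 lost the call when 1 array was left out. These were Ndufv1 without wild-type water mouse 1 or any Parp1-/- water mouse (adjusted p 0.0737 to 0.16) and Uqcrfs1 without wild-type water mouse 1 or 2 or any Parp1-/- water mouse (0.0693 to 0.143). Ndufb11 lost it without wild-type water mouse 2 or Parp1-/- water mouse 3 (adjusted p 0.0517 to 0.068), and Cox6a2 without wild-type water mouse 1 or 2 or Parp1-/- water mouse 2 or 3 (0.0802 to 0.126).

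**Figure D3:**
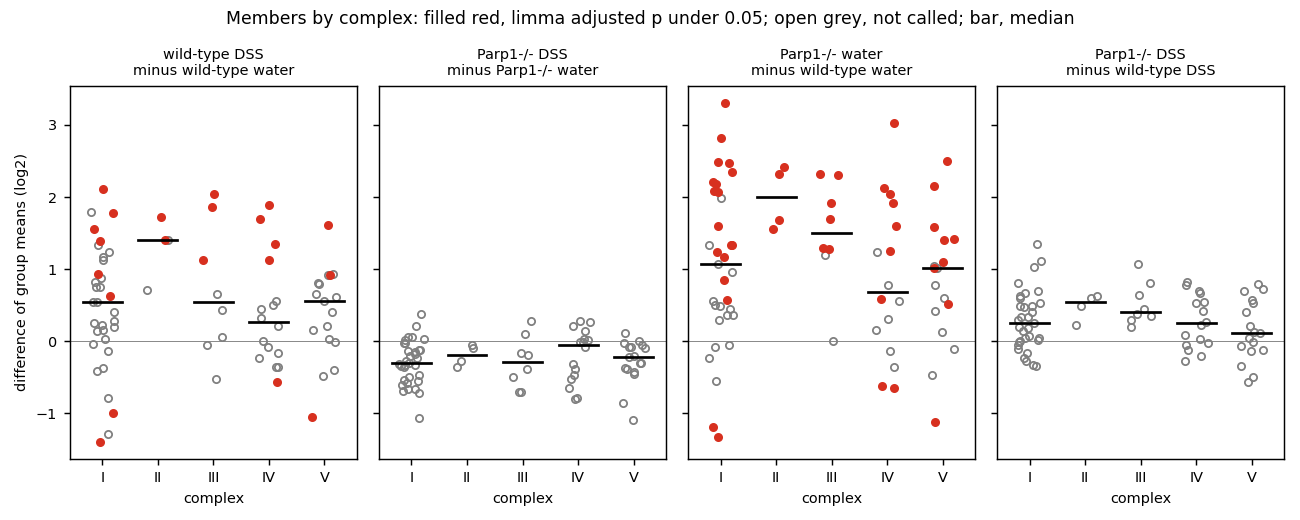
Difference of group means (log2, vertical axis) of each member by complex (horizontal axis) in the 4 comparisons of 2 groups; filled points passed a limma adjusted p under 0.05, open points did not, and bars are medians. Filled points are confined to the panels with wild-type water arrays, most of them above 0, with 41 higher in Parp1-/- water and 17 higher in wild-type DSS.

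In wild-type mice, some respiratory chain transcripts were higher after DSS than on water. Of the 78 members, 17 were called higher and 4 lower, against 8.89% and 4.16% of all genes and 13.0% in either direction. The median difference was 0.52 against -0.05 for all genes, and 58 members lay above 0, as did 45.8% of all genes. The groups did not overlap for 22 members, 28.2%, against 23.6% of all genes. The direction again turned relative to the housekeeping mean, where the median was -0.45 with 6 members higher and 28 lower, against 2.75% and 60% of all genes. That scaling moved the median of all genes by -0.97. The housekeeping list had a median difference of 1.15 with 10 of 21 genes higher, and the colonocyte list one of 1.06 with 11 of 20 higher. Goblet markers had a median of 1.69 with 6 of 10 higher, and neutrophil and monocyte markers one of 1.39 with 5 of 10 higher. The latter list averaged between -0.47 and -0.39 on water and between 0.50 and 1.63 after DSS in wild-type mice. The part of these lists in the members' difference was not tested. Under quantile normalization 1 member, Uqcrc2, was called, and 0.971% of all genes.

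A single array weighed heavily on this comparison. Wild-type DSS mouse 1 had a member median of -0.90, and without it 38 members were called higher and 4 lower, while the share of all genes called rose as well, to 19.7% higher and 12.5% lower. Without wild-type DSS mouse 2, 3 or wild-type water mouse 1 the number called higher was 7, 10 and 10, against 4.61%, 5.83% and 6.25% of all genes. Without wild-type DSS mouse 2 the number called lower was 2, against 1.07% of all genes. Without wild-type DSS mouse 3 the median difference was 0.27. Ndufs8, an iron-sulfur subunit of complex I, shows the pattern at its widest, with -3.14, -1.10 and 0.95 in the 3 DSS mice, an SD of 2.04 and a difference of 0.03 ± 0.75 from water.

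The members called higher came from all 5 complexes. Those called in complex III were Uqcrb, Uqcrc2 and Uqcrh. Uqcrb read -0.29, 0.08 and -0.10 in DSS against -2.38, -1.92 and -2.15 in water, without overlap, a difference of 2.04 ± 0.19 (adjusted p = 8.61e-05). Uqcrc2 read -0.88, 0.01 and 0.10 in DSS against -1.99, -1.94 and -2.44 in water, a difference of 1.86 ± 0.24 (adjusted p = 0.000734). Uqcrh was higher by 1.12 ± 0.33 (adjusted p = 0.0457). Uqcrc1, Uqcrfs1 and Cyc1 were not called, with differences of -0.53, -0.06 and 0.66.

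In complex I, 6 of 33 subunits were higher and 2 lower, against 8.89% and 4.16% of all genes. Ndufs4 read -0.58, 0.22 and 0.37 in DSS and -2.03, -2.35 and -1.96 in water, a difference of 2.11 ± 0.25 (adjusted p = 0.000409). Ndufv2 was higher by 1.78, Ndufa10 by 1.56, Ndufa9 by 1.39, Ndufs3 by 0.93 and Ndufs5 by 0.63. Ndufs1 and Ndufv1 were not called, at 0.87 ± 0.34 and 0.40 ± 0.55. Ndufb3 read -0.20, 0.35 and -0.03 in DSS and was lower, with a difference of -1.0 ± 0.18 (adjusted p = 0.00569). Ndufb11 was lower too, with a difference of -1.39 ± 0.32 (adjusted p = 0.0156). Both were also lower in Parp1-/- water, a comparison that shares the 3 wild-type water arrays.

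Complex II had 2 of 4 subunits called, Sdha at 1.72 ± 0.47 (adjusted p = 0.0351) and Sdhc at 1.41 ± 0.29 (adjusted p = 0.00964), where 8.89% of all genes were higher. Sdhb and Sdhd had differences of 0.71 ± 0.38 and 1.41 ± 0.47 without a call, and the median of the complex was 1.41. In complex IV 4 of 16 were higher and 1 lower, against 8.89% and 4.16% of all genes, with a median of 0.27. Cox6a1 read -0.71, 0.06 and 0.35 in DSS against -2.15, -1.89 and -1.92 in water, a difference of 1.89 ± 0.25 (adjusted p = 0.000784). Cox4i1, Cox8a and Cox7b were higher by 1.69, 1.36 and 1.12, and Cox8c, an isoform known from testis, was lower with a difference of -0.56. In complex V, Atp5md at 1.61 ± 0.39 (adjusted p = 0.0222) and Atp5b at 0.92 ± 0.25 (adjusted p = 0.036) were higher, Atp5j2 was lower with a difference of -1.06, and Atp5a1 at 0.92 ± 0.41 (adjusted p = 0.153) was not called. Without wild-type water mouse 1 or 3 or wild-type DSS mouse 2 or 3, the calls of Sdha (adjusted p 0.0573 to 0.126), Uqcrh (0.0999 to 0.14), Cox4i1 (0.0702 to 0.0995) and Atp5b (0.0616 to 0.113) were lost. Atp5md lost its call without wild-type water mouse 1 or 2 or wild-type DSS mouse 2 or 3 (adjusted p 0.0584 to 0.092), and Cox8c without wild-type water mouse 3 or wild-type DSS mouse 2 or 3 (0.0548 to 0.0958). Cox8a lost it without wild-type water mouse 3 or wild-type DSS mouse 2 (adjusted p 0.0502 to 0.0579), and Ndufv2 (0.0567), Ndufb11 (0.0609) and Sdhc (0.0506) without wild-type DSS mouse 2. Ndufs5 lost it without wild-type water mouse 1 or 3 or wild-type DSS mouse 2 or 3 (adjusted p 0.0562 to 0.0846), and Ndufa9 without any of these or wild-type water mouse 2 (0.0689 to 0.165). Relative to the housekeeping mean the differences of Ndufs3, Ndufs5 and Atp5b turned to -0.046, -0.35 and -0.050.

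In Parp1-/- mice, no member passed the test between DSS and water. limma called 0 of 78 in either direction, against 0.00938% of all genes, and 3 members, Ndufa4, Atp5d and Atp5e, had an unadjusted p under 0.05, as did 2.86% of all genes. The members nonetheless lay mostly below 0. The median difference was -0.25 against 0.01 for all genes, and 62 members were below 0 and 16 above, against 53.1% of all genes above. The groups did not overlap for 20 members, 18 of them lower in DSS, which is 25.6% against 12.5% of all genes. With the arrays weighted by their spread, 1 member was called higher and 15 lower, against 3.05% and 4.64% of all genes.

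The members with separated groups included Cox5a of complex IV and Sdhb of complex II. Cox5a read 0.83, 1.12 and 1.24 on water against 0.81, -0.05 and 0.05 after DSS, the first DSS array all but touching the water range. Atp5mpl, a small subunit of complex V, read 0.67, 0.60 and 0.53 in water and 0.06, -0.74 and -0.78 in DSS, a difference of -1.09 ± 0.52 (adjusted p = 1). Ndufa4, classed here with complex I by its name but known as a subunit of complex IV, read 0.66, 1.70 and 1.56 in water and 0.93, 0.08 and -0.30 in DSS, a difference of -1.07 ± 0.47 (adjusted p = 1). For Ndufa4, Cox7a1 and Cox5a the high values included the 3 arrays rich in smooth muscle genes. When those 3 arrays were left out together, 2 DSS mice and 1 water mouse were left and the spread came mostly from the other groups. In that fit 0 members were called, as were 0 of all genes, and 11 members lay above 0 against 46.1% of all genes.

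Between the genotypes under DSS, no member passed the test either. limma called 0 of 78 and 0% of all genes, and 1 member, Cyc1 at 1.07 ± 0.47, had an unadjusted p under 0.05, against 2.78% of all genes. The median difference was 0.28 against 0.00 for all genes, with 58 members and 50.4% of all genes above 0. It rested on wild-type DSS mouse 1: without that array the median was -0.032 with 32 members above 0, and it was -0.080 relative to the housekeeping mean. Without Parp1-/- DSS mouse 1 the median was 0.17, and without wild-type DSS mouse 3 it was 0.53. The groups did not overlap for 2 members, Uqcrb and Cox7b, 2.56% against 6.55% of all genes. For Cox7b they overlapped in each of its 2 probe sets read alone, so only the average of the probe sets was separated. Uqcrb read -0.29, 0.08 and -0.10 in wild-type DSS and 0.22, 0.29 and 0.29 in Parp1-/- DSS.

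The difference between the genotypes' responses to DSS was tested directly. Of the 78 members, 6 had a lower response in Parp1-/- mice and 1 a higher one, against 2.33% and 0.216% of all genes and 2.54% in either direction. The median difference of responses was -0.76 against 0.05 for all genes, with 13 members and 53.6% of all genes above 0. None of the 7 was called under quantile normalization, where 0 of all genes were called. None was called relative to the housekeeping mean either, where the median of the members turned to 0.32, the median of all genes moved by 1.08 to 1.13 and 90.3% of all genes lay above 0. Of the marker lists, 5 of 10 goblet and 7 of 20 colonocyte genes also had a lower response in Parp1-/- mice, and their part in the members' difference was not tested. Without wild-type DSS mouse 1, 33 members were lower and 3 higher, against 11.8% and 3.14% of all genes. Leaving out wild-type DSS mouse 2, Parp1-/- water mouse 2 or Parp1-/- DSS mouse 2 or 3 left 3 called lower, against 0.891% to 1.09% of all genes. Leaving out wild-type water mouse 1, wild-type DSS mouse 3, or Parp1-/- water mouse 1 or 3 left 4, against 0.816% to 2% of all genes. The number called higher was 2 without wild-type water mouse 1 or 2, against 0.347% and 0.418% of all genes. It was 0 without Parp1-/- water mouse 2 or 3 or any Parp1-/- DSS mouse, against 0.0141% to 0.0469%.

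The 7 members all had a wild-type water group apart from the other 3 groups. Uqcrb had the response difference of smallest adjusted p, -1.94 ± 0.26 (adjusted p = 0.00425), and was called in 18 of 20 alternative analyses. Ndufs4, at -2.14 ± 0.35 (adjusted p = 0.0106), and Uqcrc2, at -2.02 ± 0.35 (adjusted p = 0.0125), were called in 16. Cox6a1, at -1.89 ± 0.35 (adjusted p = 0.0193), was called in 12. Ndufa10, at -1.83 ± 0.43 (adjusted p = 0.0497), and Ndufs3, at -1.28 ± 0.29 (adjusted p = 0.0411), were called in 4 and 6. Ndufb3 had the opposite sign, at 1.37 ± 0.26 (adjusted p = 0.0204). For Ndufs4 the wild-type arrays moved from between -2.35 and -1.96 in water to between -0.58 and 0.37 in DSS, while the Parp1-/- arrays lay between -0.23 and 0.28 in water and between -0.04 and 0.21 in DSS. Cox4i1, whose difference of responses was as large as any, -2.47 ± 0.60, was not called (adjusted p = 0.0564), its DSS arrays in wild type spanning -1.50 to 0.39. The call of Ndufa10 was lost without any single array other than wild-type water mouse 3 or wild-type DSS mouse 1 (adjusted p 0.0853 to 0.142), and that of Ndufs3 without any single array other than those and Parp1-/- DSS mouse 1 (0.0543 to 0.135). Ndufb3 lost it without Parp1-/- water mouse 2 or 3 or any Parp1-/- DSS mouse (adjusted p 0.0513 to 0.0756), and Cox6a1 without wild-type DSS mouse 2, Parp1-/- water mouse 2 or Parp1-/- DSS mouse 2 or 3 (0.0553 to 0.0632).

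**Figure D4:**
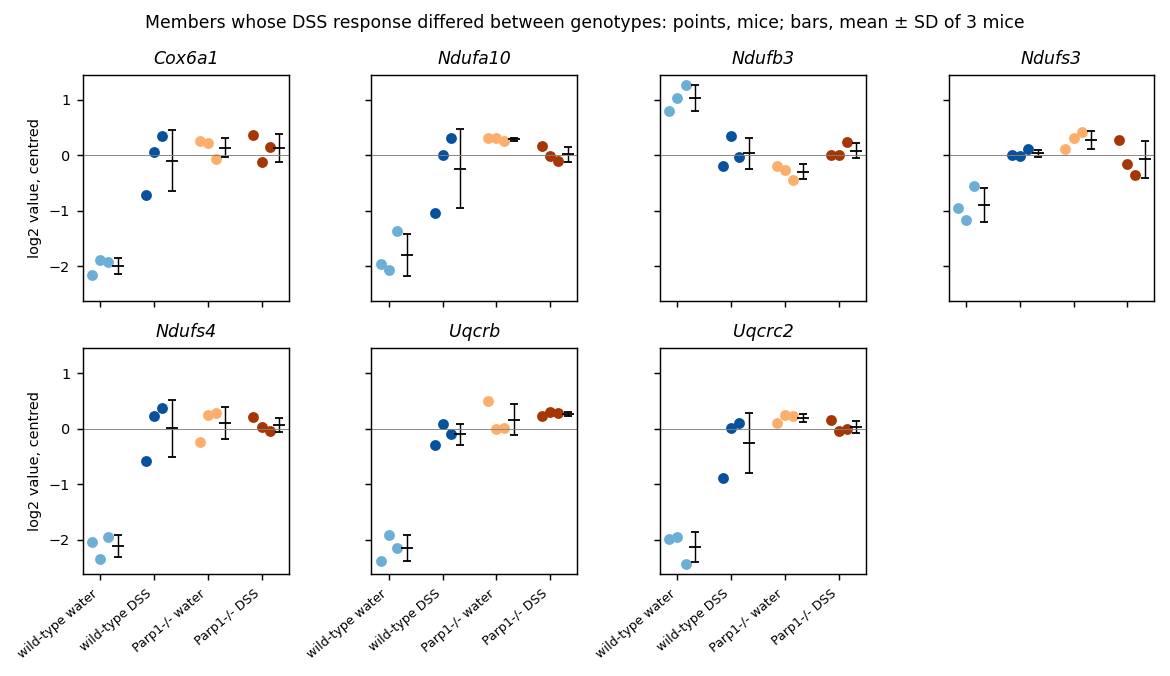
Centred log2 values of the 7 members whose DSS response differed between the genotypes, by group; points are mice and bars the mean ± SD of 3 mice. The wild-type water mice sit apart from the other groups in every panel, high for Ndufb3 and low for the other 6.

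Several complex IV subunits exist as a widely expressed form and a form known from muscle, lung or testis, and the pair was compared within each gene's own scale. Under water, 5 of 7 general forms (Cox4i1, Cox6a1, Cox7a2, Cox8a, Cox6b1, Cox7b and Ndufa4) were higher in Parp1-/- colon, with a median difference of 1.60. Of the 7 tissue forms that were measured (Cox4i2, Cox6a2, Cox7a1, Cox8b, Cox8c, Cox6b2 and Ndufa4l2), 1 was higher and 2 lower, with a median of -0.05. Over all genes 17.9% were higher and 13.7% lower. In wild-type DSS against water, 4 of 7 general forms were higher, with a median of 1.24. The tissue forms had 0 higher and 1 lower, with a median of 0.00, against 8.89% and 4.16% of all genes. Both counts of general forms include Cox7b, whose direction depends on the probe set. Relative to the housekeeping mean, the general forms had medians of 0.16 and 0.26 in these comparisons, with 3 and 2 higher and 1 and 2 lower, and the tissue forms had medians of -1.48 and -0.97 with 6 and 4 lower, where 75.3% and 60% of all genes were lower. The difference between the lists was not tested.

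Cox7a1, the heart and muscle form of subunit VIIa, was the tissue form that was higher in Parp1-/- water. It read -1.28, -0.73 and -0.29 in wild-type water and 0.89, 1.30 and 1.24 in Parp1-/- water, a difference of 1.91 ± 0.39 (adjusted p = 0.00554). Its general counterpart Cox7a2 differed by 0.78 ± 0.42 (adjusted p = 0.161). Cox7a1 was high in Parp1-/- water mouse 1, which was low in smooth muscle genes at -0.37, as well as in mice 2 and 3. In Parp1-/- DSS it read 1.125, -0.28 and 0.65, highest in mouse 1, the array rich in smooth muscle genes. The part of smooth muscle in the difference of Cox7a1 was not tested. Cox6a2, the muscle form of subunit VIa, went the other way from Cox6a1, with a difference of -0.65 ± 0.20 (adjusted p = 0.0326) against 2.12 ± 0.25 (adjusted p = 0.000301). Cox8c was lower too, with a difference of -0.62, while Cox8a was higher by 1.60. Cox4i2, the form known to respond to low oxygen, lay between -0.19 and 0.24 in all 12 arrays and had a difference of -0.13 ± 0.16.

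**Figure D5:**
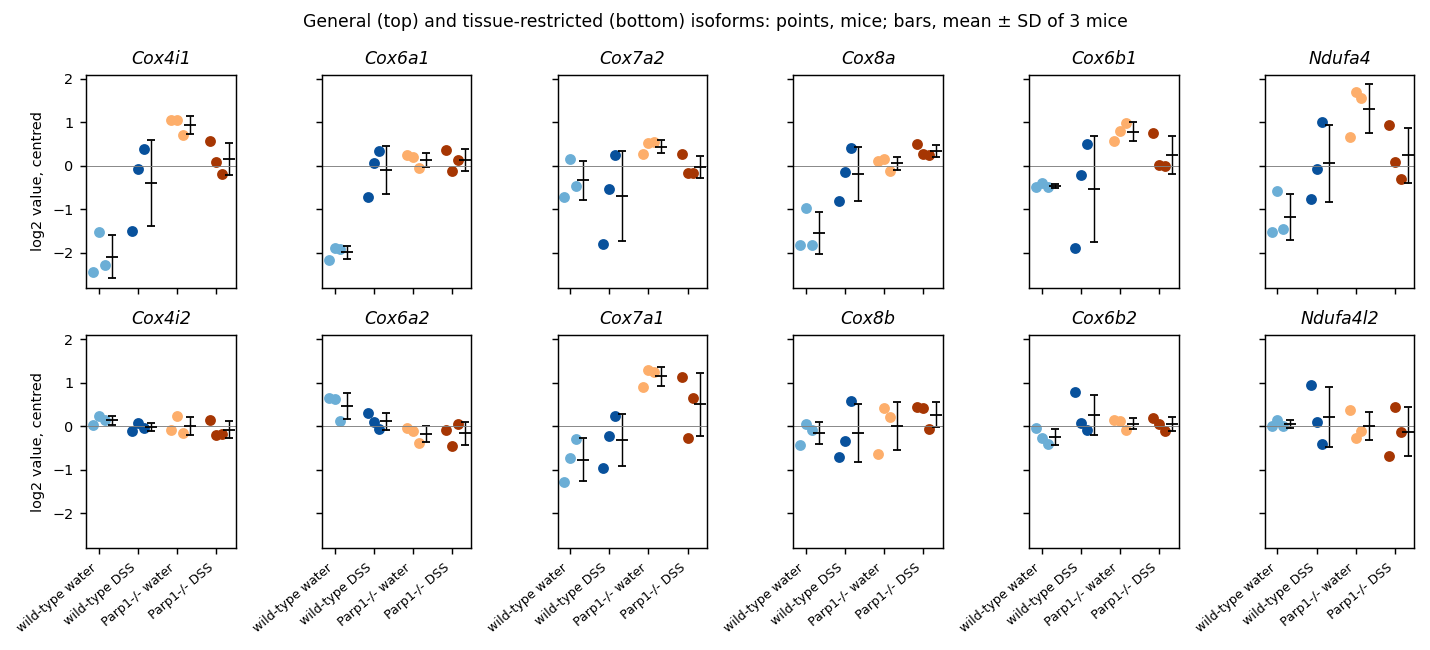
Centred log2 values of 6 general isoforms (top row) and their tissue-restricted counterparts (bottom row), by group; points are mice and bars the mean ± SD of 3 mice. Cox4i1, Cox6a1, Cox8a and Ndufa4 have their lowest mean in wild-type water, whereas Cox7a2 and Cox6b1 have it in wild-type DSS. Of the counterparts, Cox7a1 and Cox6b2 also read lowest on average in wild-type water, Cox8b has a like mean in both wild-type groups, and Cox6a2 and Cox4i2 have their highest mean in wild-type water.

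Some members were read by more than 1 probe set, and these did not always move together. Of 9 such members, the probe sets pointed to different patterns in Cox7b, Atp5d, Atp5e, Ndufa8 and Ndufa12. One Cox7b probe set read -3.38, -2.66 and -3.44 in wild-type water and the other 0.37, 1.28 and 0.22. With the latter probe set alone, the difference of Cox7b from wild-type water turned to -0.88 for wild-type DSS and -0.73 for Parp1-/- water, neither of them called, so its direction depends on the probe set.

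Genes that serve the chain were described as lists beside the members. Under water, 11 of 44 measured assembly factors were higher in Parp1-/- colon and 1 lower, 22 of 67 proteins of the mitochondrial ribosome were higher and 0 lower, and 11 of 17 citric acid cycle genes were higher and 0 lower, against 17.9% of all genes higher and 13.7% lower. The medians of the 3 lists were 0.56, 0.61 and 1.47, against 1.13 for the members and -0.07 for all genes. Relative to the housekeeping mean the assembly factors and the ribosomal proteins turned to medians of -0.87 and -0.83, and the citric acid cycle genes stood at 0.04. Cox20, a chaperone of complex IV assembly, was higher by 2.85, the ribosomal protein Mrpl16 by 2.70, Idh3b, a subunit of NAD-dependent isocitrate dehydrogenase, by 3.10, and the outer membrane channel Vdac1 by 2.90. Cycs, the cytochrome c that joins complexes III and IV, was higher by 2.06. Cox20 was not called under quantile normalization, nor Cycs relative to the housekeeping mean. Among 19 regulators of mitochondrial biogenesis, 4 were higher and 3 lower, near the shares of all genes. Relative to the housekeeping mean 0 of them were higher and 13 lower, where 75.3% of all genes were lower. The coactivators Ppargc1a and Ppargc1b were higher by 1.01 and 1.08, turned to -0.42 and -0.35 relative to the housekeeping mean, and lost the call without any 1 Parp1-/- water mouse, wild-type water mouse 1, or wild-type water mouse 2 (Ppargc1a) or 3 (Ppargc1b) (limma adjusted p 0.0694 to 0.155), and Polg2, the accessory subunit of the mitochondrial DNA polymerase, was lower with a difference of -1.16.

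In wild-type DSS against water, 3 of 44 assembly factors were higher and 1 lower, 6 of 67 ribosomal proteins were higher, 4 of 17 citric acid cycle genes higher and 6 of 20 electron carriers and exchangers higher, against 8.89% of all genes higher and 4.16% lower. The counts of assembly factors and ribosomal proteins lie near that share. Relative to the housekeeping mean the medians of these 4 lists turned from between 0.18 and 0.59 to between -0.79 and -0.39. Cox20 was higher by 3.23, Mrpl16 by 2.48, Vdac1 by 2.0, Idh3b by 1.85 and Cycs by 1.35. None of these 5 was called in wild-type DSS under quantile normalization, Cycs was not called relative to the housekeeping mean, and Idh3b lost its call without wild-type water mouse 1 or 3 or wild-type DSS mouse 2 or 3 (limma adjusted p 0.0503 to 0.0793). In Parp1-/- DSS against water limma called 0 genes of these 5 lists, against 0.00938% of all genes. Of their 44, 67, 17, 19 and 20 genes, 5 had an unadjusted p under 0.05, against 2.86% of all genes. The medians of the 5 lists lay between -0.23 and -0.09. The response to DSS differed between genotypes for Cox20 (-3.25 ± 0.76, adjusted p = 0.0494), Mrpl16 (-2.70 ± 0.56, adjusted p = 0.029), Vdac1 (-2.29 ± 0.48, adjusted p = 0.0302) and Cycs (-1.54 ± 0.27, adjusted p = 0.0149), and with the opposite sign for Polg2 (1.35 ± 0.31, adjusted p = 0.043). None of the 5 was called under quantile normalization or relative to the housekeeping mean. Cycs also lost its call without wild-type DSS mouse 2, Parp1-/- water mouse 3 or Parp1-/- DSS mouse 2 (adjusted p 0.051 to 0.0593). Cox20, Vdac1 and Polg2 lost theirs without any single array other than wild-type water mouse 2 and wild-type DSS mice 1 and 3 (0.0515 to 0.139), and Mrpl16 without any other than wild-type DSS mouse 1 and Parp1-/- water mouse 1 (0.0531 to 0.0919).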

How the data were processed

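Total RNA of the whole colon of 12 mice, 3 per group, was measured on 1 Affymetrix array each. The values are log2 signals deposited by the authors as the series' value table. The table was found to have a median of 0 for each probe set over the arrays, to within 5e-07. No source used here gives the background correction, normalization or software, scanner files were not used, and the log base and sign were assumed. Probe sets were named through the platform annotation: 22586 of 31693 had 1 symbol, 1756 several and 7351 none. Probe sets of a gene were averaged to 21314 genes.

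One limma model (limma 3.58.1 in R 4.3.3; lmFit and eBayes) with 4 group means and 12 arrays gave all 5 contrasts, with Benjamini-Hochberg adjustment over all 21314 genes and calls at an adjusted p under 0.05. Errors beside a difference are the model's moderated standard errors. The script was tested on simulated data. The number of arrays limits the precision, and the labels' separate animals are the replicates.

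The members and all gene lists were chosen with earlier results of these data known. Members named here are, per comparison and complex, up to 4 called members of largest difference whose groups do not overlap, called members that go against the majority, a set of core and isoform genes, and for other lists up to 3 called genes; others named (such as Atp5mpl, Atp5g1, Atp5g2, Atp5g3, Atp5c1, Ndufa9 and Ndufs5) were chosen after their values were seen. Alternatives were quantile normalization, equal array medians, subtraction of the housekeeping mean, 1 probe set per gene, 2 other variance models, fewer arrays and a threshold of 0.01.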

Additional observations from a re-analysis of the deposited data

Results flagged for a closer look

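The limma contrast of the genotypes' responses to DSS passed for 7 members, and this difference was itself the quantity tested. It was -2.14 for Ndufs4, -1.28 for Ndufs3, -1.83 for Ndufa10, -1.94 for Uqcrb, -2.02 for Uqcrc2 and -1.89 for Cox6a1, a lower response in Parp1-/- mice, and 1.37 for Ndufb3, a higher one. In each of the 7, all 3 wild-type water arrays lay outside the range of the other 9 arrays. None of the 7 was called under quantile normalization or relative to the housekeeping mean.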

How the results depend on the processing

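The number of called members depended on the scaling and on single arrays. Under quantile normalization, 1 member was higher and 0 lower in wild-type DSS against water, against 0.924% and 0.0469% of all genes. In Parp1-/- against wild-type water 30 were higher and 2 lower with a median of 0.75, against 7.3% and 2.64% of all genes. For the difference of responses 0 were higher and 0 lower, as were 0 of all genes. With the housekeeping mean subtracted, wild-type DSS gave 6 higher and 28 lower with a median of -0.45, against 2.75% and 60% of all genes. Parp1-/- water gave 16 higher and 30 lower with a median of -0.30, against 2.53% and 75.3% of all genes. The median between genotypes under DSS was -0.080. The difference of responses gave 0 higher and 0 lower with a median of 0.32, against 0.0891% and 0% of all genes. That subtraction also turned Atp5b (-0.050), Ndufs3 (-0.046) and Ndufs5 (-0.35) in wild-type DSS, and Atp5h (-0.020), Uqcrfs1 (-0.15), Atp5b (-0.026), Cox7b (-0.19), Ppargc1a (-0.42) and Ppargc1b (-0.35) in Parp1-/- water. Cox7b read by its first probe set by identifier alone gave -0.88 and -0.73 in these comparisons.

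The robust trend model left 0 higher and 1 lower for the difference of responses, against 0.0235% and 0.601% of all genes. Array weights were fitted gene by gene because the default fit did not converge. They gave 38 called in wild-type DSS, 33 of them higher, against 28.1% of all genes called and 15.7% higher. In Parp1-/- water 54 were called, against 46.9% of all genes. In Parp1-/- DSS 1 was higher and 15 lower, against 3.05% and 4.64% of all genes. Between genotypes under DSS 3 were higher, against 1.37% of all genes. For the difference of responses 4 were higher and 36 lower, against 10.9% and 14.7% of all genes. With only the arrays compared, wild-type DSS gave 4 higher and 0 lower, against 2.91% and 0.0938% of all genes. At a threshold of 0.01, wild-type DSS gave 7 higher and 2 lower, against 4.15% and 0.662% of all genes. Parp1-/- water gave 27 and 3, against 8.65% and 2.75%, and the difference of responses 0 and 1, against 0.00938% and 0.629%. The cause of these changes was not tested.

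Leaving out 1 array at a time gave 7 to 38 higher and 2 to 5 lower in wild-type DSS (median 0.27 to 0.77) and 32 to 39 higher and 3 to 5 lower in Parp1-/- water (median 0.94 to 1.24). It gave 0 to 3 higher and 3 to 33 lower for the difference of responses (median -1.13 to -0.58). Over all genes the shares were 4.61% to 19.7% higher and 1.07% to 12.5% lower in wild-type DSS. They were 10.2% to 16.8% and 3.64% to 12.1% in Parp1-/- water, and 0.0141% to 3.14% and 0.816% to 11.8% for the difference of responses. The other contrasts stayed at 0 called, with medians of -0.36 to -0.19 in Parp1-/- DSS and -0.032 to 0.53 between genotypes under DSS. Chosen after seeing the data, leaving out Parp1-/- water 2 and 3 together gave 5 higher and 0 lower in Parp1-/- water. Leaving out both first DSS arrays gave a median of -0.14 between genotypes under DSS. Leaving out all 4 of these arrays left 1 mouse in Parp1-/- water. The median was then -1.19 for the difference of responses, with 13 members above 0 against 52.7% of all genes. No paired analysis was possible because the labels' animal numbers pair no mice across groups. Signal over background was not available in the values used here, so it is not known which members were near background.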
